A study of Rattus norvegicus with 8 samples.

Results

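The glycolysis genes described here were 10 genes chosen by symbol: Slc2a1, Hk2, Pfkfb3, Aldoa, Gapdh, Pgk1, Pgam1, Eno1, Pkm and Ldha. Of these, 9 matched 1 feature each among the 32623 genes of the count tables, and Gapdh was not analysed here because no feature carried that symbol. The single-cell libraries came from the spinal cord of female Wistar rats, a common outbred strain, aged 8 weeks and carrying no named transgene. In the mild, moderate and severe groups a weight was dropped on the exposed thoracic cord from the lowest, the middle and the greatest of the heights used, and in the sham group the lamina was removed without a contusion. Tissue around the lesion was taken a week after surgery, and each of the 4 groups held 2 libraries. The study's text speaks of as many cords as there are libraries, and the labels name no animal for a library. P-values between injury groups therefore measure the spread between libraries. Those for cell types, states and isoenzyme shares compare classes within libraries, so they measure how much such differences varied from library to library. For types and states that variation was pooled over all classes of the fit.

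Glycolysis splits glucose into pyruvate in the cytosol and yields ATP without oxygen. Slc2a1 is the glucose transporter GLUT1, which carries glucose across the blood-brain barrier and into most cells. Hk2, hexokinase 2, traps glucose by phosphorylating it, and Pfkfb3 makes fructose 2,6-bisphosphate, the activator of phosphofructokinase. Aldoa splits the hexose. Pgk1, Pgam1, Eno1 and Pkm catalyse later steps, of which those of Pgk1 and Pkm yield ATP. Ldha reduces pyruvate to lactate, which lets the pathway run on. Several of these genes are textbook targets of the hypoxia-inducible factor HIF-1, and inflammatory macrophages and neutrophils are known for active glycolysis.

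The 250 bases upstream of the annotated start are shown for 4 members, whose levels over cell types and macrophage states are described below. They were taken from RefSeq (build GRCr8, which is not the build of the count tables), and an entry was found for 8 of the 9 members, Pgk1 having none. Capitals mark ACGTG or GCGTG on either strand, the core letters of the HIF-binding element. In CACGTG, which is also an E-box, the letters match on both strands. Slc2a1 lies on the plus strand with its window at chr5:138002272-138002521, Hk2 on the minus strand at chr4:116841276-116841525, Pfkfb3 on the plus strand at chr17:71944683-71944932, and Ldha on the plus strand at chr1:106507842-106508091.
Slc2a1: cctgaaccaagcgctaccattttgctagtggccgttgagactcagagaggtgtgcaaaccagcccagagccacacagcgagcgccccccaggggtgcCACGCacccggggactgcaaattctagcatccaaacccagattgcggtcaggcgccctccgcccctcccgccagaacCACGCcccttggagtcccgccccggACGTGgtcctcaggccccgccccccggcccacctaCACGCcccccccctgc
Hk2: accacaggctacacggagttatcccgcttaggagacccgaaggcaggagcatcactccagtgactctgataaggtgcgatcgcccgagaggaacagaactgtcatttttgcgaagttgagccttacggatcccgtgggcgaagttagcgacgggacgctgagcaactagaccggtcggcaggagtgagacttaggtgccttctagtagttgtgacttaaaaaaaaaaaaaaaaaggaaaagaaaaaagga
Pfkfb3: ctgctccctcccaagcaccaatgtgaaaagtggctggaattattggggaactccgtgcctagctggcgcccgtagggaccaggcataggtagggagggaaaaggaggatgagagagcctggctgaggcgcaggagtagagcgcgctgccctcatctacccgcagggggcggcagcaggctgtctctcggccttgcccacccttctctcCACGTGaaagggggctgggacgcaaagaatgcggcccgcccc
Ldha: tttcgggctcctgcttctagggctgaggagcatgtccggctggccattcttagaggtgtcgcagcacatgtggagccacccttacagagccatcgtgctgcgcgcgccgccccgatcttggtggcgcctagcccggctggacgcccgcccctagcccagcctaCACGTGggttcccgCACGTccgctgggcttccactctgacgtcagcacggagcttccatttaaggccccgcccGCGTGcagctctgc
These letters were found 4 times upstream of Slc2a1, 2 times upstream of Pfkfb3, 4 times upstream of Ldha and in no place upstream of Hk2. The entry of Pkm, which is not shown, held no match either. Of the 11 promoter entries of the 8 members, some having several, 7 held a match, and 36.7% of the 33469 entries of the table held one. A match is a description of the letters, and none of the data here measured binding.

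Across the 8 libraries, 68658 barcodes with 31482153 to 131045446 UMIs per library were deposited, and 55455 cells were kept after filtering. Cell types were assigned by counting detected markers of each type, with none of the members among the markers. Macrophages/microglia held 28183 cells, followed by neutrophils (7209), oligodendrocytes (3384), oligodendrocyte precursors (1621), fibroblasts (1460), T cells/NK cells (1134), erythroid cells (1017), endothelial cells (378) and B cells (136), while 10752 cells stayed ungated. The library labelled sham 1 stood apart: 4654 of its 9190 kept cells were neutrophils, and it held 593 macrophages/microglia with a median of 5483 UMIs, against 1156 to 7460 such cells with medians from 8805 to 16571 UMIs in the other libraries. The 8 markers of macrophages/microglia summed to between 8424 and 20119 CPM (UMIs of the gene per 1000000 UMIs of the cells concerned) in the gated cells of the 8 libraries. All 8 neutrophil markers were detected in the macrophages/microglia of every group, and their summed level was 4065 CPM in sham 1 against 145 to 371 CPM in the other 7 libraries. Erythroid markers, 6 of which had a feature, summed to 1148 CPM in the macrophages/microglia of severe 2, 184 CPM in sham 1 and 95.2 CPM in severe 1, and to between 1.33 and 27.5 CPM in the others, with Slc4a1 and Hemgn at 0 in sham and mild and Hemgn at 0 in moderate. The part of these cells and of free RNA in the results was not tested. Pairs of libraries shared between 2 and 25 cell barcodes.

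Together the members gave 2244777 UMIs. Macrophages/microglia held 69.6% of them, near the 65.2% of all UMIs that lay in these cells, which were 50.8% of the cells. The share was highest for Hk2 (82.8%) and Pfkfb3 (77.8%) and lowest for Slc2a1 (47.4%), whose 378 endothelial cells held 20.2% of its UMIs. For the 9 members summed, the mean level was 4930.3 CPM in neutrophils (SD 1165, n = 7), 4509 in macrophages/microglia (SD 1275, n = 8), 4101 in fibroblasts (SD 773, n = 7) and 4081 in oligodendrocyte precursors (SD 928, n = 8), with overlapping ranges between neighbours in this order. It was 2564 CPM in T cells/NK cells (SD 741, n = 7) and 1981 in oligodendrocytes (SD 441, n = 8). Erythroid cells were lowest at 78.9 CPM (SD 40.0, n = 3), apart from every other type.

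**Figure D1:**
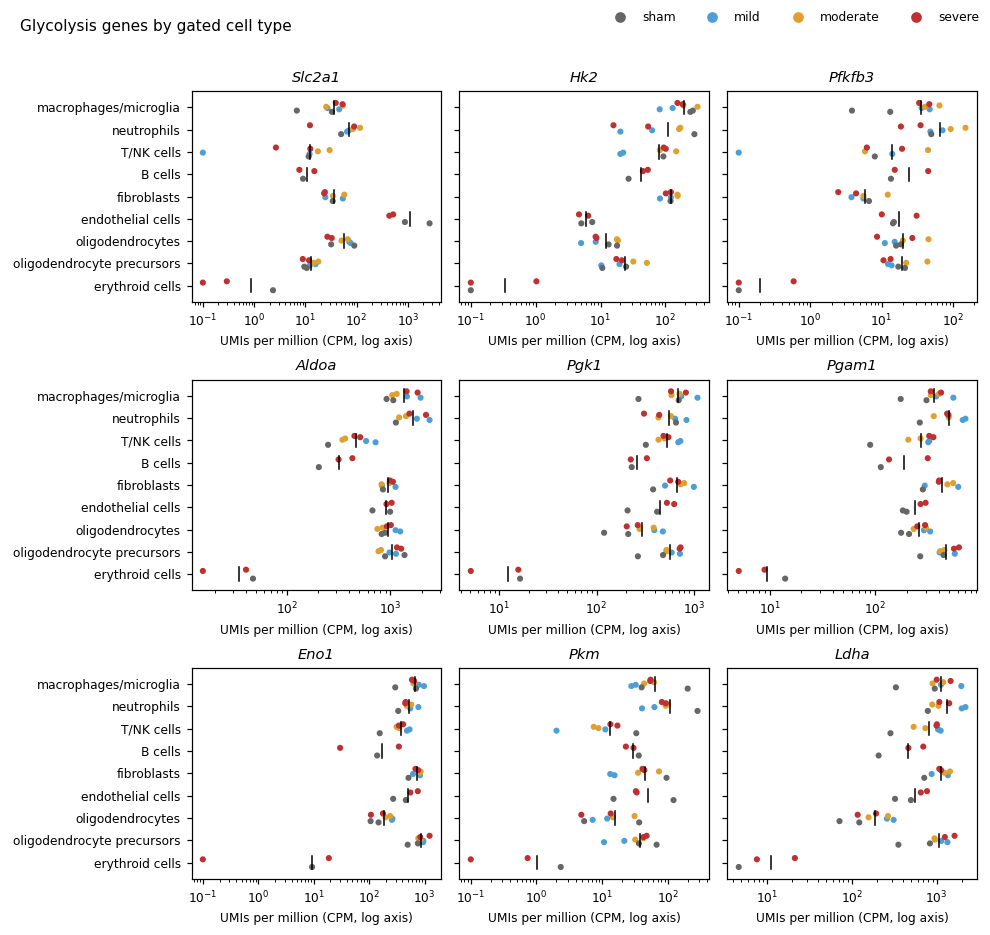
Level of each glycolysis gene by marker-gated cell type (CPM, log axis), 1 point for every library that held 20 or more of these cells, coloured by injury group, with a black line at the mean; values under 0.1 CPM, zeros among them, are drawn at 0.1. Slc2a1 stands out in endothelial cells at 436 to 2659 CPM, while Hk2 lies at 4.65 to 7.44 CPM there and at 81.5 to 312 CPM in macrophages/microglia.

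Endothelial cells and macrophages/microglia showed opposite orders for the transporter and for hexokinase 2. In endothelial cells, which reached 20 cells in 4 libraries, the level of Slc2a1 was 2659 CPM in sham 1, 878 in sham 2, 436 in severe 1 and 518 in severe 2. In macrophages/microglia it was 33, 6.82, 53.2 and 39.2 CPM in the same libraries. Every endothelial value was above every macrophage value. The log2 difference was 4.68 (SE 0.35, adjusted p = 1.0e-16, edgeR's quasi-likelihood test with the library as a term and Benjamini-Hochberg adjustment over 13607 genes), and 40.0% of all genes passed the test in that comparison. Hk2 took the other direction, with levels of 5.05, 7.44, 6.44 and 4.65 CPM in endothelial cells of those libraries and a log2 difference of -5.71 (SE 0.58, adjusted p = 3.5e-12). Among the other members 6 fell in endothelial cells against macrophages/microglia, by 0.88 (Pgk1) to 1.19 (Pfkfb3) on the log2 scale, and Eno1 did not pass the test at -0.64. The median was -1.05 over the 9 members and -0.22 over all genes.

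Neutrophils were the one type against which no member was higher in macrophages/microglia past the threshold of edgeR's test. With edgeR 5 of the 9 members had an unadjusted p under 0.05 there. DESeq2 called 6, and the directions of its calls are not given here. Slc2a1 (log2 difference 0.84, SE 0.30, adjusted p = 0.013), Pkm (0.89, SE 0.22, adjusted p = 5.0e-04) and Pfkfb3 (0.75, SE 0.30, adjusted p = 0.025) rose in neutrophils, in a comparison where 60.6% of all genes passed the same edgeR test, 25.4% upward. The other 6 members lay between -0.68 (Hk2) and 0.40 (Pgam1). The median over the members was 0.32, and over all genes it was -0.26. In the 7 libraries with neutrophils the level of Pkm ran from 40.4 to 283 CPM, the highest being sham 1. All 3 of these calls were for genes whose ranges over libraries overlapped between the types.

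Cells of the oligodendrocyte lineage were low in hexokinase 2. Hk2 reached 5.01 to 18.5 CPM in oligodendrocytes and 10.3 to 51.8 CPM in their precursors, below the macrophage range in every library. In oligodendrocytes 8 members fell against macrophages/microglia, where 67.1% of all genes passed and 34.8% passed downward: Hk2 by 4.21, Ldha by 2.76, Pkm by 2.05, Eno1 by 2.03, Pgk1 by 1.45, Pfkfb3 by 1.19, Aldoa by 0.72 and Pgam1 by 0.67 on the log2 scale (adjusted p from 6.6e-16 to 0.0014, edgeR). Slc2a1 was the exception in oligodendrocytes at 0.41 (SE 0.27, adjusted p = 0.18). In precursors 7 members fell, with 61.7% of all genes passing, and the order of the changes differed: Hk2 fell by 3.55 and Slc2a1 by 2.05, while Eno1 (-0.20) and Pgam1 (-0.22) did not pass. The median over the members was -1.45 in oligodendrocytes and -0.97 in precursors, against -0.09 and 0.05 over all genes.

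T cells/NK cells were lower than macrophages/microglia in all 9 members, from 0.87 (Pgk1) to 2.50 (Pkm) on the log2 scale, with 47.6% of all genes passing. B cells were lower in 8 members, with 28.0% of genes passing and Pfkfb3 at -1.40 (adjusted p = 0.14). Erythroid cells were lower in 7 members, with 28.6% passing. In fibroblasts 4 members fell, where 53.2% of genes passed: Pfkfb3 by 2.99, Hk2 by 0.73, Aldoa by 0.72 and Pkm by 0.69. The Pfkfb3 level in fibroblasts was 2.47 to 12.2 CPM over 7 libraries. Members had a median of -1.54 in T cells/NK cells, -2.49 in B cells, -2.11 in erythroid cells and -0.34 in fibroblasts, beside medians over all genes of -0.41, -1.06, -1.72 and 0.01.

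Several members are 1 of a small family of isoenzymes, and the share of the family that the member took differed between types. Ldha makes the lactate dehydrogenase subunit of muscle and Ldhb that of heart, which is known to favour the oxidation of lactate. In macrophages/microglia Ldha made up 90.0% of the UMIs of both genes in sham 1, 67.6% in sham 2, 98.1% and 97.7% in mild 1 and 2, 93.2% and 96.6% in moderate 1 and 2, and 97.2% and 90.3% in severe 1 and 2. In oligodendrocytes it made up 23.9%, 13.4%, 37.5%, 39.0%, 29.0%, 51.8%, 20.2% and 23.0% in the same order of libraries. Each of the 8 libraries had the lower share in oligodendrocytes, the average difference being -61.6 percentage points (SD 9.61), with an exact two-sided sign-flip permutation p of 0.0078, the smallest that 8 libraries allow, and an adjusted p of 0.056 over 32 such tests. None of the 32 comparisons passed 0.05 after adjustment, and 13 had an unadjusted exact permutation p under 0.05. RNA of macrophages/microglia was present in the oligodendrocyte sums, where its 8 markers summed to 38.5 to 356 CPM against 8424 to 20119 CPM in macrophages/microglia, and its part in the shares was not tested.

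**Figure D2:**
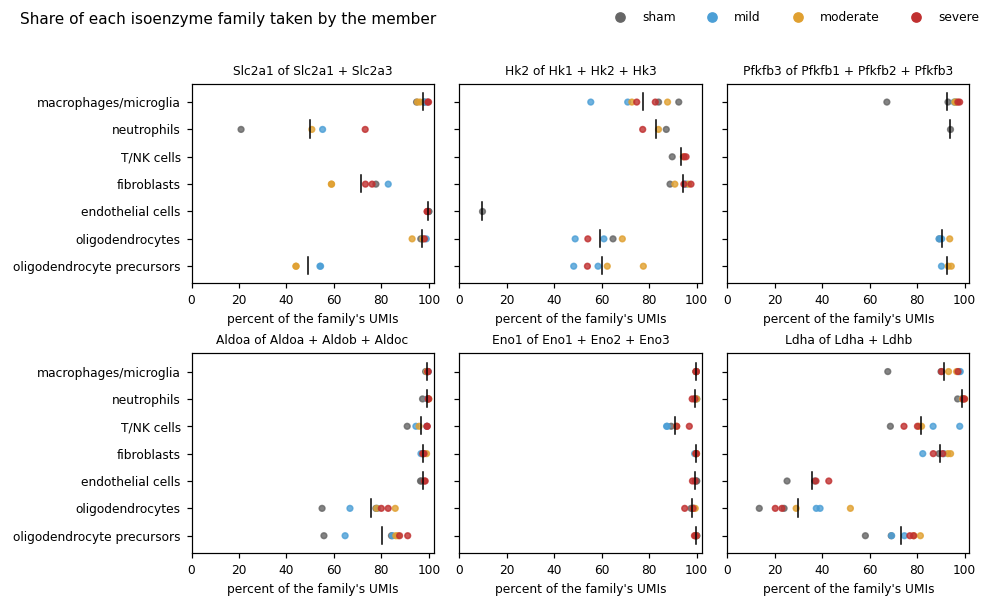
Share (percent of the UMIs of its isoenzyme family) taken by the member in each cell type, 1 point per library with at least 20 cells and 50 family UMIs, coloured by injury group. Ldha lies at 67.6% to 98.1% in macrophages/microglia and at 13.4% to 51.8% in oligodendrocytes.

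The Ldha share was also low in endothelial cells, at 35.5% (SD 7.4, n = 4), and high in neutrophils, at 99.0% (SD 1.0, n = 7). For aldolase, Aldoa took 99.4% in macrophages/microglia (SD 0.37, n = 8), 80.2% in oligodendrocyte precursors (SD 12.7, n = 8) and 75.6% in oligodendrocytes (SD 10.0, n = 8), the rest being almost all Aldoc, the brain form. The lower share held in 8 of 8 libraries for both types (exact permutation p = 0.0078, adjusted p = 0.056). Among glucose transporters, Slc2a1 took 97.7% of the UMIs of Slc2a1 and Slc2a3 in macrophages/microglia (SD 1.96, n = 8). Slc2a3, the transporter GLUT3, matched it in precursors, where the Slc2a1 share was 49.1% (SD 5.9, n = 4). In neutrophils that share averaged 50.0% (SD 21.7, n = 4) and ran from 20.9% to 73.2% between libraries. Hk2 took 94.1% of Hk1, Hk2 and Hk3 in fibroblasts (SD 3.19, n = 7) and 75.4% in macrophages/microglia of the same 7 libraries, where Hk3 is the other main form. With 4 libraries an exact test cannot go below 0.125 here.

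Macrophages/microglia were divided by marker panels into 6 states, and 12483 of them fell in none. Cd36 of the lipid-laden panel, Nos2 of the Cxcl1-high panel, and Ccr2 and Plac8 of the infiltrating panel had no feature. The infiltrating state thus rests on Fn1, Vcan, Thbs1 and Emilin2. Scores are continuous, and 6845 cells lay near a limit between states. The states held 4769 lipid-laden Fabp4 Spp1 macrophages, 3195 homeostatic-type microglia, 2701 infiltrating Fn1 Vcan macrophages, 1945 activated Ccl4 Cd83 microglia, 1792 Mrc1 Cd163 border-type macrophages and 1298 Cxcl1-high inflammatory macrophages. The infiltrating state had the highest mean level of 8 of the 9 members.

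Ldha separated the infiltrating macrophages from every other state. Its level there was 2862 CPM in sham 1, which held 20 such cells, 4305 and 2733 in mild 1 and 2, 1911 and 2229 in moderate 1 and 2, and 2881 and 2084 in severe 1 and 2. In homeostatic-type microglia it was 888 and 290 CPM in sham 1 and 2, 963 and 694 in mild, 466 and 688 in moderate, and 488 and 617 in severe. The ranges did not overlap, and the lipid-laden state, which came next, ended at 1878 CPM. The log2 difference from homeostatic-type microglia was 2.11 (SE 0.15, adjusted p = 7.9e-16, edgeR's quasi-likelihood test with the library as a term over 10615 genes).

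In infiltrating macrophages 8 of 9 members rose against homeostatic-type microglia, in a comparison where 54.3% of all genes passed and 26.9% passed upward. Pfkfb3 rose by 2.69 on the log2 scale (SE 0.24), from 2.90 to 44.8 CPM in homeostatic-type microglia to 41.4 to 121 CPM. Slc2a1 rose by 2.32 (SE 0.21), and its lowest infiltrating value of 69.5 CPM lay just under the highest homeostatic-type value of 69.7. Pgam1 rose by 1.48, Pgk1 by 1.28, Eno1 by 1.23, Aldoa by 1.09 and Pkm by 0.52, with adjusted p from 1.8e-15 to 4.1e-05 (edgeR). The median was 1.28 over the members and -0.02 over all genes. The ranges of the 2 states did not overlap for 5 of the 9 members. How many of all genes had ranges apart is not given here, so that count has no background to be read against. Hk2 did not follow: its level was 93.7 to 332 CPM in infiltrating macrophages and 111 to 399 CPM in homeostatic-type microglia, with a log2 difference of -0.01 (SE 0.13, adjusted p = 0.96).

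**Figure D3:**
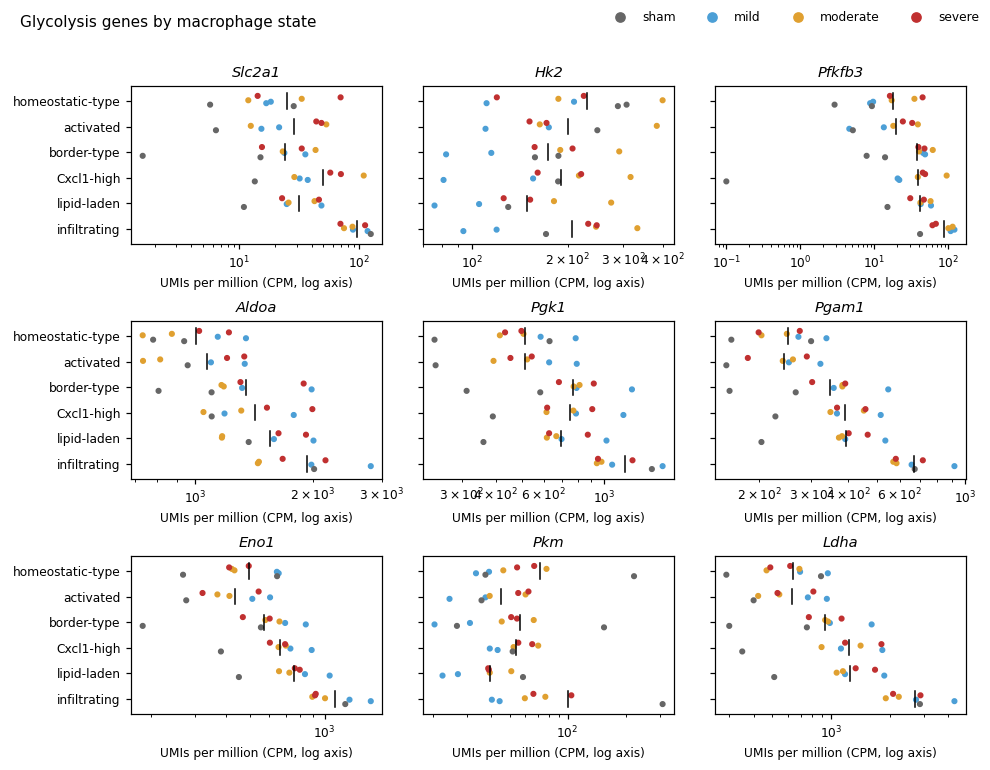
Level of each glycolysis gene by macrophage/microglia state (CPM, log axis), 1 point for every library that held 20 or more of these cells, coloured by injury group, with a black line at the mean; values under 0.1 CPM are drawn at 0.1. Ldha in infiltrating macrophages (1911 to 4305 CPM) lies above every value of the other states, and Hk2 shows no such step.

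The remaining states were compared with homeostatic-type microglia in the same way. Lipid-laden macrophages rose in 7 members, with 56.2% of all genes passing: Pfkfb3 by 1.74, Ldha by 1.26, Slc2a1 by 0.99, Eno1 by 0.93, Aldoa and Pgam1 by 0.90 each and Pgk1 by 0.76, while Hk2 fell by 0.37 (SE 0.13, adjusted p = 0.011, edgeR). Cxcl1-high macrophages rose in 7 members, with 18.2% of genes passing, led by Slc2a1 (1.43) and Pfkfb3 (1.42), whereas Hk2 (-0.22) and Pkm (0.20) did not pass. Border-type macrophages rose in 6 members, with 29.4% passing, and Hk2 fell by 0.39 (SE 0.12, adjusted p = 0.012). In activated Ccl4 Cd83 microglia no member passed edgeR's test, 2 of 9 had an unadjusted p under 0.05, DESeq2 called 0, and 1.5% of all genes passed. The largest difference in that state was that of Slc2a1 at 0.79 (SE 0.24, adjusted p = 0.082). Over the members the median was 0.90 in lipid-laden, 0.66 in Cxcl1-high and 0.50 in border-type macrophages and 0.09 in activated microglia, and over all genes it was -0.06, -0.02, -0.03 and -0.0048.

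In the fit over all libraries, macrophages/microglia with proliferation markers were lower in most members than those without. They numbered 4006 and 17386 cells, and the proliferating cells had the higher median of UMIs in each library, 11901 to 22662 against 4433 to 15187. The Pfkfb3 level was 7.0, 3.07, 15.6, 18.1, 21.2, 40.8, 23.3 and 16.0 CPM in proliferating cells of sham 1 and 2, mild 1 and 2, moderate 1 and 2 and severe 1 and 2. It was 15.8, 4.63, 70.4, 48.3, 48.5, 76.2, 50.1 and 39.0 CPM in non-proliferating cells, higher in 8 of 8 libraries. Pfkfb3 fell by 1.64 on the log2 scale (SE 0.12, adjusted p = 1.8e-07, edgeR over 12704 genes), and 48.8% of all genes passed. Slc2a1 fell by 0.98, Aldoa by 0.64, Hk2 by 0.61, Ldha by 0.51, Eno1 by 0.36 and Pgk1 by 0.29, while Pgam1 (-0.20) and Pkm (0.09) did not pass. The 9 members summed were lower in proliferating cells of every injured library. In sham 1 and 2 the sum was higher there, at 4372 and 2527 CPM against 4183 and 2136 CPM. Ldha did the same in sham, at 1089 and 441 CPM against 935 and 276 CPM, as did Eno1 and Pgam1. Pfkfb3 and Slc2a1 were lower in proliferating cells of both sham libraries. The change in Pgk1 was small against the scaling, and it was 0.016 when libraries were scaled by size alone.

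The next comparison asked how the members differed with injury in macrophages/microglia as a whole. In these sums a change in a gene within cells and a change in the mix of states cannot be told apart. Homeostatic-type microglia made up 23.3% and 61.2% of macrophages/microglia in sham 1 and 2 and 1.31% to 11.1% in the 6 injured libraries. Lipid-laden macrophages made up 1.35% and 2.19% in sham and 6.89% to 24.5% in injured libraries, and Cxcl1-high macrophages reached 19.9% and 13.4% in severe 1 and 2. Infiltrating macrophages made up 3.37% and 0.143% in sham 1 and 2 and 3.28% to 18.4% in injured libraries. For activated microglia the shares were 0.169% and 3.72% in sham and 1.29% to 23.8% in injured libraries. Those of border-type macrophages were 17.2% and 3.29% in sham and 3.32% to 8.08% in injured libraries.

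Pfkfb3, the enzyme that makes the activator of phosphofructokinase, had the largest difference from sham among the members. Its level in macrophages/microglia was 13.2 and 3.85 CPM in sham 1 and 2, 47.1 and 36.4 in mild, 40.4 and 64.6 in moderate, and 46.6 and 33.6 in severe. Every injured library was above both sham libraries. The mean of the 3 injured groups rose by 2.73 on the log2 scale (SE 0.43, adjusted p = 0.011, edgeR over 13849 genes), with 12% of all genes called. Without sham 1 the rise was 3.56 (adjusted p = 0.0030) and without sham 2 it was 2.14 (adjusted p = 0.013). Against sham, Pfkfb3 also passed in each group on its own, at 2.53 in mild, 2.77 in moderate and 2.88 in severe. Over the injured groups it passed in each of the 8 fits that left out 1 library, at 2.14 to 3.56.

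**Figure D4:**
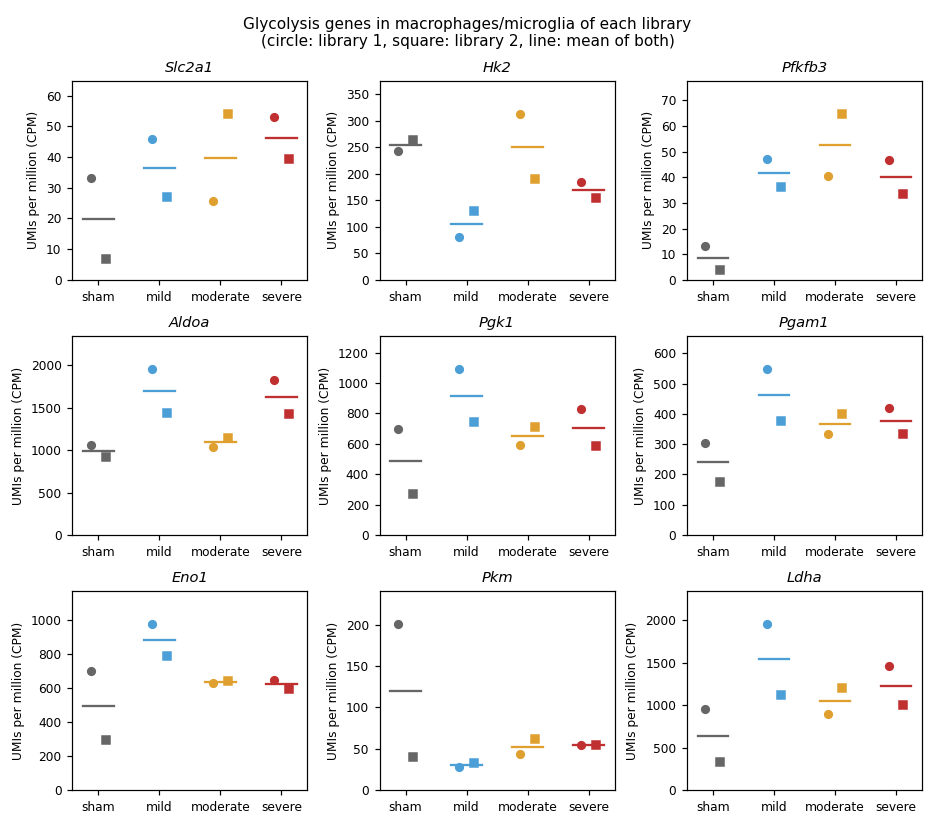
Level of each glycolysis gene in macrophages/microglia (CPM, linear axes from 0) in the 2 libraries of each injury group, with a line at the group mean. Pfkfb3 is at 3.85 and 13.2 CPM in sham and at 33.6 to 64.6 CPM in the injured libraries, and Pkm is at 200 CPM in sham 1 and at 27.8 to 61.7 CPM elsewhere.

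Pgam1, the phosphoglycerate mutase, was the other member that rose over all injured groups. Its level was 305 and 174 CPM in sham, 547 and 376 in mild, 335 and 400 in moderate, and 419 and 335 in severe. The log2 difference was 0.97 (SE 0.25, adjusted p = 0.042, edgeR), and it lost the call without sham 2 or without any single injured library, while it passed at 1.24 without sham 1. Aldoa was at 1066 and 917 CPM in sham, 1956 and 1443 in mild, 1041 and 1149 in moderate, and 1831 and 1433 in severe. It passed in severe at 1.22 (SE 0.27, adjusted p = 0.032), not without any single injured library, and lay at 0.15 in moderate, where the ranges overlapped with sham.

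Ldha and Slc2a1 were lower in sham 2 than in any other library. The level of Ldha was 950 and 331 CPM in sham 1 and 2, 1951 and 1124 in mild, 895 and 1198 in moderate, and 1460 and 1001 in severe. That of Slc2a1 was 33 and 6.82 CPM in sham, 45.9 and 27.0 in mild, 25.6 and 54.0 in moderate, and 53.2 and 39.2 in severe. Neither passed over the injured groups: Ldha was at 1.24 (SE 0.39, adjusted p = 0.072) and Slc2a1 at 1.36 (SE 0.53, adjusted p = 0.13). Without sham 1 both passed, at 1.96 and 2.60. Pgk1 (699 and 270 CPM in sham, 583 to 1091 in injured libraries) and Eno1 (700 and 296 CPM in sham, 593 to 977 in injured libraries) did the same, from 0.89 and 0.76 with both sham libraries to 1.51 and 1.29 without sham 1.

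Hk2 and Pkm lay in the other direction and did not pass over the injured groups. Hk2 was at 242 and 264 CPM in sham, 81.5 and 129 in mild, 312 and 189 in moderate, and 185 and 153 in severe, with a log2 difference of -0.44 (SE 0.28, adjusted p = 0.32). The libraries of mild were the lowest, and moderate 1 was above sham. Pkm was at 200 CPM in sham 1, 39.8 in sham 2, 27.8 and 32.4 in mild, 43.6 and 61.7 in moderate, and 53.9 and 54.6 in severe. Its difference of -1.13 (SE 0.41, adjusted p = 0.10) depended on sham 1: it was 0.19 without sham 1 and passed the test at -1.79 without sham 2. Pkm was highest in sham 1 in 7 of the 7 cell types counted, neutrophils among them. The part of neutrophil RNA in the Pkm values of sham 1 was not tested.

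By group, the calls in macrophages/microglia were 1 of 9 members in mild (7.15% of all genes called), 1 in moderate (3.60%) and 3 in severe (9.18%), where Pgam1 (1.19, adjusted p = 0.043) joined Pfkfb3 and Aldoa. The Pfkfb3 calls by group were lost in mild without mild 1 or mild 2, in moderate without either mild or either moderate library, and in severe without severe 1, and Pgam1 in severe was lost without sham 2 or any injured library. With the 2 groups of a comparison fitted alone, none of the calls of single groups against sham was made, and of all genes 0 of 12643 were called in mild, 0 of 12877 in moderate and 271 of 11371 in severe (edgeR), with 3259, 2427 and 2513 genes at an unadjusted p under 0.05. Between severe and mild none of the 9 passed edgeR's test, 2 had an unadjusted p under 0.05, DESeq2 called 1, and 2.51% of all genes were called. Those with the largest differences were Pkm at 1.27 (adjusted p = 0.23), which passed without sham 1 or without sham 2, and Hk2 at 1.09 (adjusted p = 0.14).

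**Figure D5:**
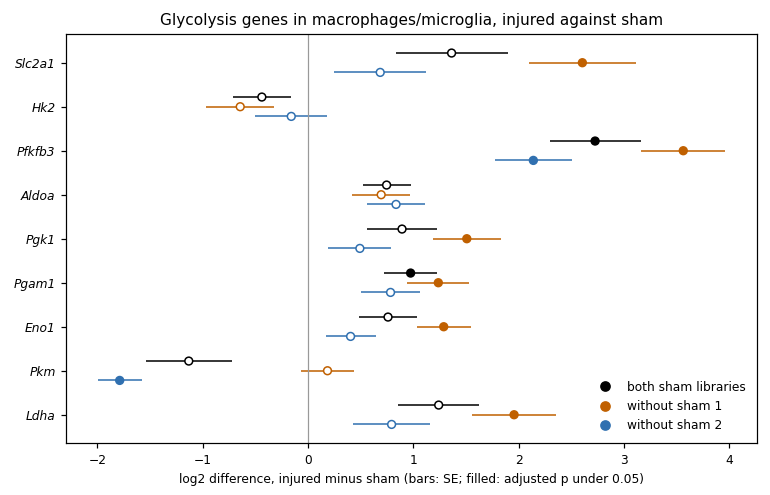
Fitted log2 differences of each glycolysis gene in macrophages/microglia, all injured groups against sham, with bars of 1 standard error. Colours mark the fits with both sham libraries, without sham 1 and without sham 2. Filled points passed an adjusted p of 0.05. Pfkfb3 lies at 2.73 with both sham libraries, 3.56 without sham 1 and 2.14 without sham 2, and the 3 fits share the injured libraries.

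Both sham libraries could be used in 2 states, and Pfkfb3 passed over the injured groups in border-type macrophages and not in homeostatic-type microglia. In border-type macrophages its level was 13.9 and 7.86 CPM in sham, 48.4 and 45.5 in mild, 40.1 and 61.5 in moderate, and 47.5 and 39.3 in severe. It rose by 2.07 over the injured groups (SE 0.33, adjusted p = 0.017, edgeR over 8941 genes), with 2.56% of all genes called. Without a division into states, it also rose by 2.83 in non-proliferating cells (14.1% of genes called), where Pgam1 (1.23) and Aldoa (0.93) passed as well, and by 2.49 in proliferating cells (2.54% called). The Pfkfb3 call in border-type and in non-proliferating cells was made in each of the 8 fits that left out 1 library, and that in proliferating cells was lost without sham 2. Aldoa lost its call in non-proliferating cells in each of those 8 fits, and Pgam1 in 6 of them. Against each injured group on its own, Pfkfb3 passed in border-type macrophages at 1.99 in mild (2.37% of genes called), 2.04 in moderate (0.537%) and 2.18 in severe (1.24%), and in proliferating cells at 2.10 (3.64%), 2.81 (2.71%) and 2.55 (1.37%), with no other member. In non-proliferating cells it passed at 2.82 in mild (8.85%), 2.89 in moderate (4.32%) and 2.78 in severe (9.36%), with Pgam1 in mild (1.36) and severe (1.39) and Aldoa in severe (1.3). Each of these single-group calls was lost in 2 to 7 of the 8 fits that left out 1 library. In homeostatic-type microglia, with 9.25 and 2.90 CPM in sham and 8.76 to 44.8 CPM in injured libraries, Pfkfb3 did not pass, and no other member did in any of the 5 comparisons, with 1.15% of all genes called over the injured groups, 0.288% in mild, 0.16% in moderate, 0.438% in severe and 0.726% in severe against mild. There, 1 or 2 members had an unadjusted p under 0.05 in each comparison, and DESeq2 called 1 in severe against sham and 0 in the others. The highest log2 difference of any member there was 1.78 over the injured groups, 0.83 in mild, 2.12 in moderate and 2.39 in severe. The lowest was -1.18, -1.74, -1.09 and -0.72 in the same order. For Pfkfb3, the moderate and the severe libraries lay above both sham libraries in 2 of 2 states, the mild ones in 1 of 2. Moderate 2 and severe 1 held 50 and 22 homeostatic-type cells. The difference between the 2 states was not tested.

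Between severe and mild, single states gave calls that macrophages/microglia as a whole did not. Pkm passed in Cxcl1-high (1.07, 17.2% of genes called), infiltrating (1.24, 3.07% called) and lipid-laden macrophages (1.01, 8.36% called). Both severe libraries lay above both mild libraries for Pkm in 6 of 6 states and in 5 of 6 cell types. In infiltrating macrophages Hk2 passed as well, at 247 and 232 CPM in severe against 93.7 and 119 in mild (log2 difference 1.43, SE 0.26, adjusted p = 0.017, edgeR). Pfkfb3 passed in Cxcl1-high macrophages at 1.67, with 48.4 and 45.0 CPM in severe against 21.7 and 20.6 in mild. Each of these 5 calls was lost without mild 1, mild 2 or severe 1, and Hk2 in infiltrating and Pkm in lipid-laden macrophages also without severe 2. No member passed edgeR's test between severe and mild in border-type macrophages (2.09% of genes called), activated microglia (4.54%), non-proliferating (1.42%) or proliferating cells (2.96%), where 2, 3, 2 and 2 members had an unadjusted p under 0.05 and DESeq2 called 1, 0, 0 and 0.

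Outside macrophages/microglia, lactate dehydrogenase and phosphoglycerate kinase rose in oligodendrocytes of the mild group and in precursors of the severe group. In oligodendrocytes Ldha was at 123 and 71.8 CPM in sham, 311 and 260 in mild, 158 and 267 in moderate, and 118 and 193 in severe. No member passed edgeR's test over the injured groups (4.28% of genes called), where 6 had an unadjusted p under 0.05 and DESeq2 called 2. Mild against sham gave 3 members that rose, Ldha by 1.51, Pgk1 by 1.37 and Eno1 by 1.02, and 1 that fell, Hk2 by 1.28 (adjusted p from 0.021 to 0.045, edgeR over 9549 genes), with 8.57% of all genes called. Sham 2 held 33 oligodendrocytes, and each of the 4 calls was lost without sham 1, mild 1 or mild 2. The 8 markers of macrophages/microglia, all detected, summed to 115 and 130 CPM in these cells in sham and to 204 and 356 CPM in mild, and their part in the result was not tested. No member passed edgeR's test in moderate (4.27% of genes called) or severe (1.23%), where 2 and 4 members had an unadjusted p under 0.05 and DESeq2 called 0. Severe against mild gave none either (3.29% of genes called, 3 members with an unadjusted p under 0.05, 0 with DESeq2).

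In oligodendrocyte precursors Ldha was at 355 and 834 CPM in sham, 1340 and 1131 in mild, 956 and 942 in moderate, and 1249 and 1625 in severe. Severe against sham passed for Ldha at 1.53 and Pgk1 at 1.21, with 6.91% of genes called, and severe against mild for Pkm at 1.75, with 4.12% called. Sham 1 and severe 1 held 41 and 44 precursors. Ldha lost the call without sham 1, mild 2 or severe 2, Pgk1 without any library but sham 2, and Pkm without mild 1 or severe 2. Markers of macrophages/microglia summed to 95.8 and 134 CPM in precursors in sham and to 16.5 and 72.0 CPM in severe, and their part in the result was not tested. No member passed edgeR's test in precursors over the injured groups (5.56% of genes called), in mild (2.8%) or in moderate (4.69%), where 3, 3 and 0 members had an unadjusted p under 0.05 and DESeq2 called 2, 1 and 0. In T cells/NK cells Hk2 was at 101 and 94.2 CPM in severe and at 20.2 and 22.4 CPM in mild, and it rose by 2.44 (SE 0.51, adjusted p = 0.0056, edgeR over 6641 genes), with 3.24% of genes called. Without mild 1 or mild 2 it did not pass. Markers of macrophages/microglia summed to 331 and 648 CPM in these T cells/NK cells in mild and to 29.6 and 180 CPM in severe. Their part in the result was not tested. No member passed in endothelial cells between severe and sham (0.403% of genes called), nor between severe and mild in neutrophils (6.0%) or fibroblasts (1.19%). Their smallest adjusted p was 0.22, 0.079 and 0.067 in the same order, 5, 1 and 1 members had an unadjusted p under 0.05, and DESeq2 called 0, 0 and 1. The endothelial Slc2a1 levels given above were lower in both severe than in both sham libraries, but the log2 difference of -1.63 (SE 0.52, adjusted p = 0.22, edgeR) did not pass, was -0.60 without sham 1 and passed at -2.20 without sham 2.

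Genes around the pathway were read from 5 further lists. In macrophages/microglia of the injured groups against sham, 2 of the 16 other glycolysis enzymes tested rose and 1 fell: Hk3 by 1.65 among those that rose, and the phosphofructokinase subunit Pfkp fell by 1.18. The lactate exporter Slc16a3 (MCT4) rose by 1.61 and was the one call among 14 genes of lactate transport and pyruvate entry. Of 18 genes of the hypoxia response 3 rose, Vegfa by 3.73, Ndrg1 by 2.20 and Adm by 2.20, and Ddit4 fell by 1.09. The median over the 18 was -0.04, as was that over all genes. In the citric acid cycle 6 of 13 genes rose and none fell (median 0.59), and in the pentose phosphate pathway 2 of 6 rose (median 0.64), beside a median of 0.89 for the 9 members.

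Vegfa, the vascular endothelial growth factor, was graded between libraries. Its level in macrophages/microglia was 9.61 and 3.34 CPM in sham, 36.4 and 19.5 in mild, 44.7 and 75.4 in moderate, and 288 and 95.9 in severe. Both severe libraries were above all others. It passed between severe and mild at 3.18 (SE 0.61, adjusted p = 0.041, edgeR).

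Between infiltrating macrophages and homeostatic-type microglia, 13 of 17 hypoxia response genes rose and none fell, against 8 of 9 glycolysis genes. Of all genes 54.3% passed in this comparison, 26.9% upward. Vegfa rose by 4.86, the mitophagy gene Bnip3 by 3.43 and Ndrg1 by 2.74. Of 13 genes of lactate transport and pyruvate entry 6 rose and 3 fell, with Slc16a3 up by 2.82, and Slc16a7 (MCT2, a high-affinity carrier), the kinase gene Pdk4 and Pdk3 lower by 2.67, 1.88 and 0.60. Ldhb fell by 3.30 and Aldoc rose by 2.10. In the citric acid cycle 1 of 13 rose and 3 fell, Fh, fumarate hydratase, by 1.24. Proliferating against non-proliferating cells gave the other order, with 10 of 18 hypoxia genes lower and 1 higher, Vegfa being lower by 3.18 and Bnip3 by 1.74. In the pentose phosphate pathway 5 of 6 genes fell there. Of all 12704 genes, 2713 were higher and 3489 lower in proliferating cells (48.8% called).

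In neutrophils against macrophages/microglia, where 25.4% of all genes rose and 35.2% fell, 13 of 13 citric acid cycle genes fell and 11 of 17 hypoxia genes rose and 2 fell, with Slc2a3 up by 7.24, Ddit4 by 4.32 and Slc16a3 by 3.61. In oligodendrocytes, where 32.3% of all genes rose and 34.8% fell, 7 of 17 hypoxia genes rose and 9 fell, 1 of 13 citric acid cycle genes rose and 6 fell, and 5 of 6 genes of the pentose phosphate pathway fell. There, Slc16a3 fell by 4.61 and Pdk1 by 4.37, while Aldoc rose by 5.01, Pdk4 by 3.73 and the phosphofructokinase subunit Pfkm by 3.37. In endothelial cells Epas1, the HIF-2 subunit, rose by 8.92, from 0.18 to 6.61 CPM in macrophages/microglia, and Ldhb by 3.15.

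One further enzyme of the pathway differed between severe and mild in each class tested. Tpi1, triosephosphate isomerase, was at 15.4 and 11.4 CPM in macrophages/microglia of sham, 10.5 and 5.70 in mild, 8.87 and 8.72 in moderate, and 103 and 43.6 in severe. It rose by 3.57 between severe and mild (SE 0.45, adjusted p = 0.0083, edgeR). Both severe libraries were above both mild libraries in 6 of 6 cell types and 6 of 6 states.

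Over the 56 sums of library and cell type, the genes whose level followed the mean of the members most closely were Hebp1 (Spearman's rho 0.89), Ninj1 (0.84), Ier3 (0.83), Plaur (0.82) and S100a11 (0.82), among 2680 genes with a mean of at least 50 CPM. The sums share libraries and depth, so this is a description. Each member was compared in the same way with the mean of the other 8. Over all sums rho was 0.31 for Slc2a1, 0.35 for Hk2, 0.40 for Pfkfb3 and 0.62 to 0.68 for the other 6 members. Over the macrophages/microglia of the 8 libraries it was -0.60 for Hk2 and -0.33 for Pkm, and 0.38 to 0.76 for the others. Hk2 and Pkm were the only members with a negative rho over these 8 libraries, and no rho was tested.

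RefSeq lists processed pseudogenes named after 6 of the members, 9 for Aldoa, 8 for Pgk1, 13 for Pgam1, 32 for Eno1, 19 for Pkm and 30 for Ldha, and reads shared with such copies make the absolute levels of these members uncertain. None is listed for Slc2a1, Hk2 or Pfkfb3.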

How the data were processed

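Single-cell RNA libraries (10x Genomics 3' kit) of rat spinal cord, 8 in all, were used. The authors deposited, per library, raw UMI counts per gene and barcode, made with Cell Ranger (version 5.0.1 in the file headers) on Rnor_6.0. Here, cells were kept with at most 10% mitochondrial UMIs and with UMIs and genes within 2 SD of the library mean, after removal of the 7.7% of barcodes with the highest doublet scores. Cells were gated by markers: at least 3 of 8 listed for a type with a lead of 2, and a state score of 0.5 with a lead of 0.25. Of the 162 marker entries listed, 149 had a feature, so some panels were smaller. No member was a marker. The gate was set after looking at marker detection. The members and gene lists were chosen with earlier results of these data known. Named genes were all members, the 5 largest rises and falls of a list among called genes, and the 5 genes most like the members.

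In each library the UMIs of all cells of a class were added up where it held 20 cells or more, and tested with edgeR 4.0.16 (quasi-likelihood, TMM, filterByExpr) in R 4.3.3, with Benjamini-Hochberg adjustment over all genes tested and a threshold of 0.05. Groups were compared in 1 fit of all libraries; types and states were compared with the library as a term. Isoenzyme shares were compared by an exact sign-flip permutation test. Levels are CPM of the summed counts, so 1 UMI stands for 1 molecule whatever the length of the transcript. Depth was 31482153 to 131045446 UMIs per library. Alternatives were DESeq2 1.42.0, other scaling, filters and gates, a replicate block and leaving out each library. The scripts were tested on simulated data. Replicate libraries differed beyond sampling noise (chi-square per gene 125 to 224). Deviations of same-numbered libraries of different groups correlated at -0.34 to 0.30, with both signs among the pairs of groups.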

Additional observations from a re-analysis of the deposited data

Results flagged for a closer look

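In the cells that no marker gate took, which entered no comparison, 4 members were higher in each of the 6 injured libraries than in either sham library. The mean over the injured libraries was 1605 CPM for Ldha (1013 and 875 CPM in sham 1 and 2), 896.8 CPM for Eno1 (533 and 507), 750.3 CPM for Pgk1 (599 and 442) and 580.9 CPM for Pgam1 (292 and 336). Sham 2 held 65 such cells. The share of all genes that lay apart in the same way is not given here, so the count is no result about the members.

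Pfkfb3 rose against sham in macrophages/microglia, by 2.53 on the log2 scale in mild and by 2.88 in severe (edgeR). In oligodendrocyte precursors the order was the opposite, with 21.3 and 17.2 CPM in sham, 13.8 and 12.3 CPM in mild and 10.6 and 13.4 CPM in severe. In oligodendrocytes it was the opposite for mild, with 16.0 and 18.6 CPM in sham and 11.1 and 15.3 CPM in mild. These values rest on 6 to 46 UMIs a library in precursors and 7 to 214 in oligodendrocytes. The moderate group did not show the opposite order. Both moderate libraries lay above both sham libraries in 3 of 3 cell types: macrophages/microglia, precursors and oligodendrocytes. The difference between the cell types was not tested.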

How the results depend on the processing

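Counts of member differences called in the cell types (54 of 72) stayed at 45 to 56 in every alternative. With the stricter gate and with at least 50 cells per library, only 46 of the 54 calls could be fitted. The counts there were 45 and 48. Those in the macrophage/microglia states stayed at 35 to 38 (37 as reported). No isoenzyme share passed in any alternative, which says little about the shares. The smallest p of the exact permutation test is 0.0078 with 8 libraries and larger with fewer, which leaves little room to pass after adjustment. Counts for injury moved. In macrophages/microglia, 7 of 45 differences were called as reported, 19 with DESeq2, 4 with scaling by library size only, 25 with no filter on low counts, 1 with the 2 groups compared fitted alone and 2 to 23 with 1 library left out. In the other types the count of 8 became 15 with DESeq2, 5 with library size only, 22 with no filter, 2 with at least 50 cells per library and 1 to 23 with 1 library left out. With at least 50 cells, only 1 of the 8 calls could be fitted. Within states the count of 22 became 48 with DESeq2, 11 with library size only, 73 with no filter, 11 with the 2 groups alone and 6 to 59 with 1 library left out. With the 2 groups alone, 17 of the 22 calls could be fitted. Outside the injury comparisons in macrophages/microglia as a whole, counts over all genes in these alternatives are not given here. The moves there are therefore no result about the members. By comparison in macrophages/microglia, all injured groups against sham gave 2, which became 5 with DESeq2, 1 with library size only, 6 with no filter and 1 to 6 with 1 library left out, while over all genes 1666 calls became 2572, 2040, 3131 and 444 to 1992. Mild against sham gave 1, which became 6 with DESeq2, 8 with no filter, 0 with the 2 groups alone and 0 to 7 with 1 library left out (all genes 990, then 2313, 2738, 0 and 24 to 1953). Moderate against sham gave 1, which became 3 with no filter, 0 with the 2 groups alone and 0 to 2 with 1 library left out (all genes 498, then 2261, 0 and 11 to 1414). Severe against sham gave 3, which became 6 with DESeq2, 1 with library size only, 6 with no filter, 0 with the 2 groups alone and 0 to 7 with 1 library left out (all genes 1272, then 2480, 2592, 2800, 271 and 246 to 1934). Severe against mild gave 0, which became 1 with DESeq2, 2 with no filter, 1 with the 2 groups alone and 0 to 1 with 1 library left out (all genes 348, then 1184, 1710, 988 and 49 to 1130). The cause of these moves was not tested. Fits on 2 groups or without a library also held fewer samples, and the part of that was not tested either. Of the 7 calls in macrophages/microglia, 7 were kept with DESeq2, with no filter and without sham 1, 5 without sham 2, 4 with library size only, with the replicate block and without severe 2, 3 without moderate 1, moderate 2 or severe 1, 2 without mild 1 or mild 2, and 0 of the 5 that could be fitted with the 2 groups alone. None changed sign. Scaling by library size only moved the median of all genes from -0.04 to -0.23 for all injured groups against sham and from -0.09 to -0.59 for severe against sham, and turned 784 rises and 882 falls into 577 and 1463, and 798 and 474 into 498 and 2094. The one change of sign among called members was Pgk1 in proliferating against non-proliferating cells, at 0.016 with library size only.

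Replicate numbers were not used to pair the samples, since the labels give them no shared animal or day. The deviations of same-numbered libraries correlated at -0.34 to 0.30, with no common sign. That check cannot tell whether libraries shared a day, because the numbers may be ordered differently from group to group. With the replicate number as a block, 4 differences were called in macrophages/microglia, 5 in the other types and 15 within states. In macrophages/microglia 1 each was for all injured groups and for severe against sham, where 1062 and 821 of all genes were called.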

Other observations

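Some libraries had the highest level of a member in most of the 7 cell types counted. Pkm was highest in sham 1 in 7 of 7, Pfkfb3 in moderate 2 in 6 of 7 and Slc2a1 in moderate 2 in 5 of 7. Hk2 was highest in moderate 1 in 5 of 7, Aldoa in mild 1 in 5 of 7 and Pgk1 in mild 1 in 4 of 7. For Eno1, both severe libraries lay below both mild libraries in 4 of 6 cell types and in 5 of 6 macrophage/microglia states.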
